A study of Zea mays with 12 samples.

Results

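Primary roots of maize, inbred line B73, were compared after 24 h with nitrate and after 24 h without nitrogen. Seeds germinated for 3 days in the dark, and each seedling was then moved to a tube of nutrient medium, which held 1 mM NO3- for the +NO3 group and no nitrogen for the -N_control group. Both groups had 3 biological replicates of 4 to 8 plants, and neither received TIS108, an inhibitor of strigolactone synthesis, or PCIB, an inhibitor of auxin action. The other two groups of the 12-sample study, nitrate plus 10 µM PCIB (+NO3_plus_PCIB) and the medium without nitrogen plus 2 µM TIS108 (-N_plus_TIS108), are used below only as further levels of the same genes. The values are poly(A) RNA abundances in FPKM (fragments scaled by the length of the feature and by the total of mapped fragments), given as 1 value per entry and group.

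The comparison covers the entries with at least 5 FPKM in either of its groups, which were 15510 of the 26451 entries of the table. They comprise 15254 nuclear gene models, 223 RNA genes with an ENSRNA identifier, 16 microRNA loci, 16 mitochondrial genes and 1 plastid gene. The level was reached in both groups by 13954 of them, with nitrate alone by 581 and in the N-deprived control alone by 975. An entry that reached it in 1 group alone had to be higher there. The lowest entry taken in had 5.002 FPKM in its higher group and the highest one left out had 4.999 FPKM. Since each group has a single value, no SD, standard error or p-value can be given, no test was run, and "higher" and "lower" describe these columns only. Sequencing depth is unknown, and in a whole root fewer cells of a type and less RNA per cell cannot be told apart.

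Nitrate is both the main nitrogen source of crop roots and a signal. Roots take it up through nitrate transporters, reduce it by nitrate reductase and nitrite reductase, and build the ammonium into glutamine, and genes of these steps are known in many plants to be switched on by nitrate. Roots short of nitrogen instead raise uptake capacity, recycle nitrogen and, in maize and other grasses, produce strigolactones, hormones that also act on branching. The nuclear gene models carry identifiers without names, and 0 of the 26061 could be paired with a gene symbol here. Genes for assimilating nitrate, for making strigolactones or for responding to auxin, and markers of root cell types, therefore cannot be identified in it. Names exist only for microRNA loci and for genes of the mitochondrion and the plastid.

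Of markers that bear on the labelled tissue, only plastid genes of green tissue could be read. The photosystem genes psbA and psaB were at 0.609 and 0.0999 FPKM with nitrate, against 0.487 and 0.117 FPKM in the control. The gene of the large Rubisco subunit, rbcL, was at 0.856 FPKM with nitrate and 0.803 FPKM in the control. All 3 were thus low in both groups. Selection of poly(A) RNA can lower plastid messengers in any tissue, so these values do not test the tissue.

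With nitrate, more entries were lower than higher past a 2-fold limit, and most of these differences in both directions were moderate. A difference was counted as called when log2(FPKM + 1) differed by at least 2-fold, which understates differences of low entries. By this limit 87 entries were higher with nitrate, 0.561% of the 15510, and 536 were lower, 3.46%. At a limit of 1.5-fold the numbers were 257 higher and 1512 lower. At 4-fold they were 23 higher and 34 lower, and at 8-fold 10 higher and 0 lower. Between 2-fold and 4-fold lay 64 of the 87 higher and 502 of the 536 lower entries. The balance among the steepest differences depended on the pseudocount. At 8-fold it was 10 higher and 7 lower with a pseudocount of 0.1, and at 4-fold it was 10 higher and 2 lower with a pseudocount of 5.

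The centre of the distribution lay on the other side. Of all members 8903 were above the control and 6606 below it, and the median log2 difference was 0.05. The middle 50% of the members lay between -0.20 and 0.20. The 5th percentile was -0.85 and the 95th 0.40, and the 1st was -1.50 and the 99th 0.75. The tail on the lower side was thus longer at both pairs of percentiles, while most entries were slightly above the control. When both columns were scaled to equal sums the median was 0.13.

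**Figure D1:**
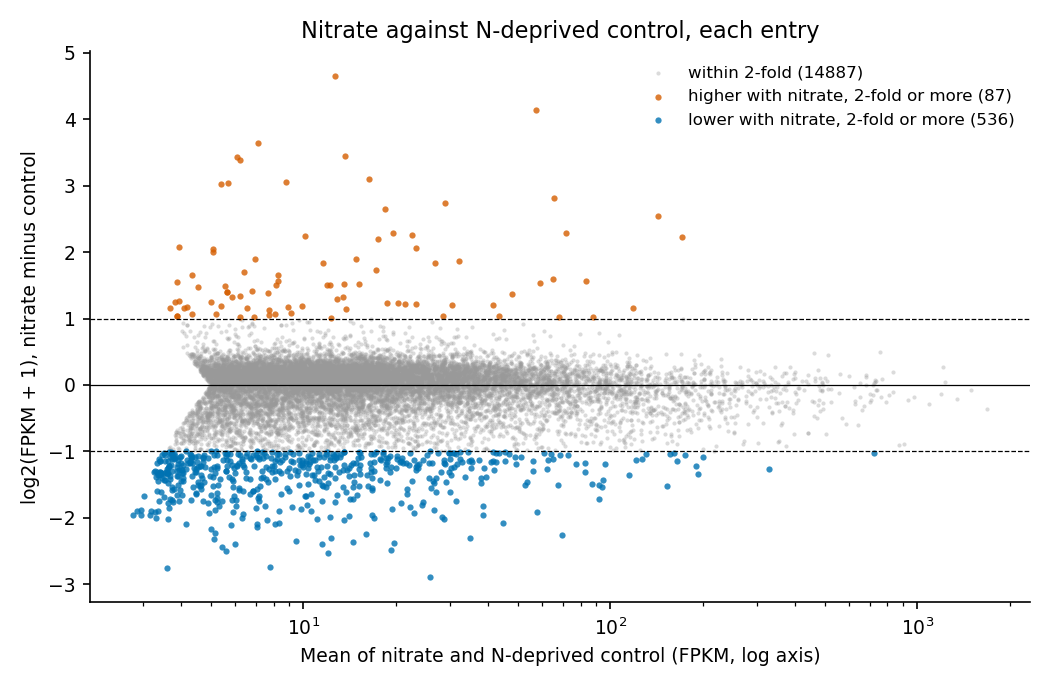
Each point is 1 of the 15510 entries, placed by its mean FPKM in the nitrate and N-deprived control columns (log axis) and by its difference in log2(FPKM + 1), nitrate minus control. The 87 orange entries are higher and the 536 blue entries lower by at least 2-fold (dashed lines), and the 10 entries above a difference of 3 (8-fold) are all higher with nitrate.

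More than 50% of the entries past the limit in each direction were under 5 FPKM in the lower of their groups. Of the 87 higher entries 47 were under 5 FPKM in the control, and of the 536 lower entries 288 were under 5 FPKM with nitrate. Among the 13954 entries at 5 FPKM or more in both groups, 40 were higher and 248 lower. The higher entries had a median of 16.5 FPKM with nitrate and 4.48 FPKM in the control. The lower ones had 4.40 FPKM with nitrate and 13.2 FPKM in the control.

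Abundance also set apart the direction of small differences. Among the 4716 members with a mean of 10 to 20 FPKM, 2956 were above the control and 1759 below it, and the median log2 difference was 0.08. Among the 785 members with a mean of 100 FPKM or more, 277 were above and 508 below, with a median of -0.10. When both columns were scaled to equal sums these medians were 0.16 and -0.02, so that the abundant entries stood near 0 and the middle ones above it. After quantile normalization, which gives both columns the same distribution of values by construction, they were 0.08 and 0.04. Past the 2-fold limit were 3 higher and 14 lower of the 785, while 0.561% of all members were higher and 3.46% lower. The difference between abundant and middle levels is therefore one of small shifts relative to the column total.

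Those abundant entries account for most of the difference in total FPKM. The nitrate column summed to 469344 FPKM and the control column to 497447 FPKM, a difference of -28103. The 785 abundant members summed to 169430 FPKM with nitrate and 188782 FPKM in the control, and they hold 68.9% of that difference, although they hold 36.1% of all FPKM with nitrate and 38.0% in the control. The 536 lower entries summed to 5922 FPKM with nitrate and 15277 FPKM in the control, 33.3% of it, and 14 of them are among the abundant members. The members within the limit hold 66.5%. The 87 higher entries summed to 3003 FPKM with nitrate and 846 FPKM in the control, which offsets 2157 FPKM. The highest-ranking 1702 entries held 50% of all FPKM with nitrate, against 1548 entries in the control, so the nitrate column was spread slightly more evenly.

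**Figure D2:**
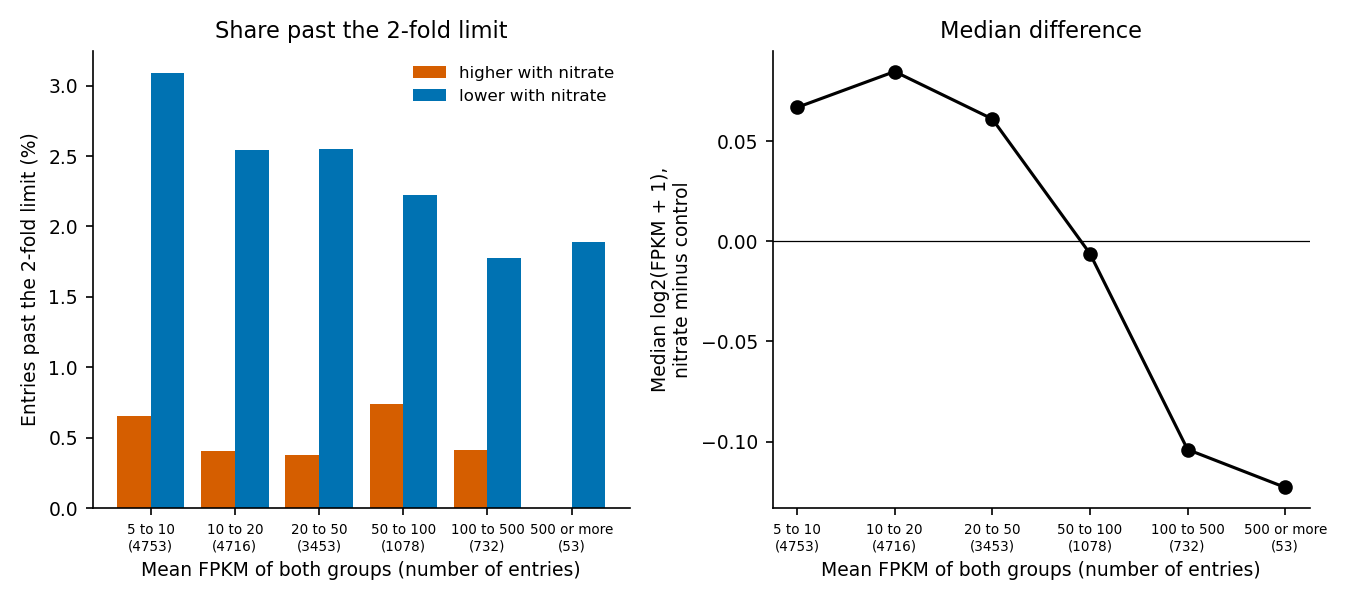
Left, the percentage of entries past the 2-fold limit in 6 classes of mean FPKM (number of entries in parentheses), with orange bars for higher and blue bars for lower with nitrate. Right, the median difference in log2(FPKM + 1), nitrate minus control, in the same classes, which is 0.08 at 10 to 20 FPKM and -0.12 in the 53 entries at 500 FPKM or more. The 725 entries with a mean under 5 FPKM are not drawn. All of them passed the minimum through 1 group alone, as did some of the entries drawn. Of these 725, 13 (1.79%) were higher and 143 (19.7%) lower by the limit.

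The entries with the steepest differences upward were at 5.21 FPKM or less in the control. Zm00001d045022, the nuclear gene model with the widest log2 difference upward, was at 25.4 FPKM with nitrate and 0.0465 FPKM in the control, a log2(FPKM + 1) difference of 4.66. It stood at 12.6 FPKM with nitrate plus PCIB and 0.116 FPKM with TIS108. Both groups given nitrate were thus high, and both without it were close to 0. The 10 entries higher by at least 8-fold had the same order of medians: 15.3 FPKM with nitrate, 11.1 FPKM with nitrate plus PCIB, 0.616 FPKM with TIS108 and 0.420 FPKM in the control. Their ranges were 10.4 to 109 FPKM with nitrate, 1.75 to 173 FPKM with nitrate plus PCIB, 0.116 to 4.18 FPKM with TIS108 and 0.0465 to 5.21 FPKM in the control. In the control 6 of the 10 were under 1 FPKM and 4 were above it.

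The widest gain in FPKM itself was that of Zm00001d029546. It was at 284 FPKM with nitrate and 59.8 FPKM in the control, a ratio of 4.74, and ranked 157 and 1544 among all entries of these columns. It was at 174 FPKM with nitrate plus PCIB and 64.1 FPKM with TIS108, so again both nitrate groups were above both groups without nitrate. The higher entries thus held a transcript far above their median of 16.5 FPKM with nitrate.

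On the lower side Zm00001d044769 had the widest log2 difference downward, with 5.37 FPKM with nitrate and 46.5 FPKM in the control, a log2(FPKM + 1) difference of -2.90. It was at 10.4 FPKM with nitrate plus PCIB and 16.8 FPKM with TIS108, so the control was the highest of the 4 groups. The 34 entries lower by at least 4-fold had medians of 2.42 FPKM with nitrate, 6.39 FPKM with nitrate plus PCIB, 7.10 FPKM with TIS108 and 14.2 FPKM in the control. The values with PCIB and with TIS108 lay between the pair of columns that chose the entries, which is in part built in by the choice.

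The widest loss in FPKM was that of Zm00001d035683, which was at 477 FPKM with nitrate and 972 FPKM in the control, a ratio of 0.490. It was the entry ranked 12 in the control and 56 with nitrate. It was at 489 FPKM with nitrate plus PCIB and 413 FPKM with TIS108, so the control stood above the other groups. Its log2 difference of -1.03 was within the limit under either other scaling, at -0.94 when the columns had equal sums and at -0.82 after quantile normalization.

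Few entries were well expressed in 1 group and nearly absent in the other. Under 1 FPKM in the control and at 5 FPKM or more with nitrate were 7 entries, with medians of 12.0 FPKM with nitrate and 0.254 FPKM in the control. Under 1 FPKM with nitrate and at 5 FPKM or more in the control were 14 entries, with medians of 0.745 FPKM with nitrate and 5.69 FPKM in the control. At a bound of 0.5 FPKM in place of 1 the balance was the other way, with 6 entries under it in the control and 1 with nitrate. All of these entries passed the 5 FPKM minimum through the group in which they are high.

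Across the 4 groups the called entries spread in different ways. The 87 higher entries had medians of 16.5 FPKM with nitrate, 12.2 FPKM with nitrate plus PCIB, 5.53 FPKM with TIS108 and 4.48 FPKM in the control. The 536 lower entries had medians of 4.40 FPKM with nitrate, 8.96 FPKM with nitrate plus PCIB, 7.33 FPKM with TIS108 and 13.2 FPKM in the control. For the 14887 entries within the limit the 4 medians were 14.0, 13.8, 13.9 and 13.7 FPKM in the same order. The nitrate and control columns chose the entries, so that values of the other two columns between them are in part built in, and whether the groups differ there was not tested.

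**Figure D3:**
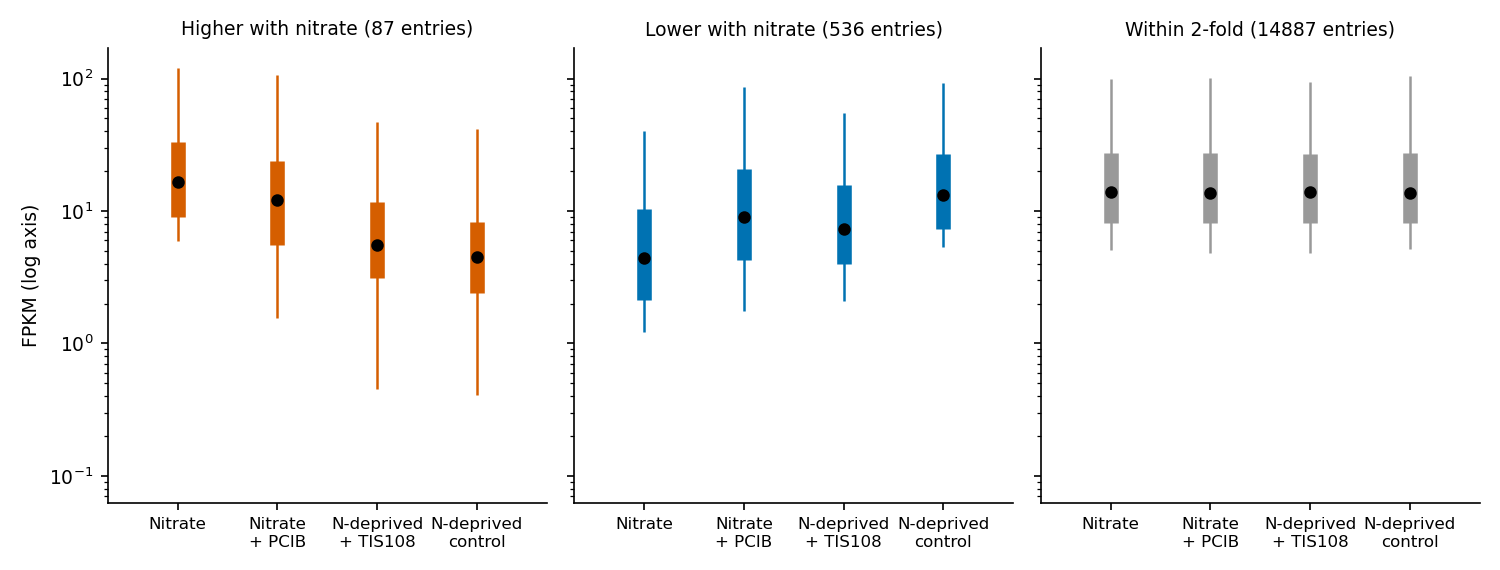
FPKM (log axis) in the nitrate, nitrate plus PCIB, N-deprived plus TIS108 and N-deprived control columns for the entries higher with nitrate, lower with nitrate and within the 2-fold limit. Points are medians over entries, thick bars the middle 50% and thin lines the 5th to 95th percentiles; they show spread between entries and not between replicates. The higher entries have medians of 16.5 and 12.2 FPKM in the nitrate groups, against 5.53 and 4.48 FPKM in the groups without nitrate.

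A minority of the called nuclear entries had a called neighbour in identifier number. Of the 534 lower nuclear gene models 300 had a member whose number differs by 1, and for 47 of these (15.7%) such a neighbour was lower too, while 4 (1.33%) had a higher one. Over all 8703 nuclear members with such a neighbour, 4.16% had a lower one. Of the 81 higher ones 48 had a neighbour among the members, of which 6 (12.5%) had a higher neighbour and 4 (8.33%) a lower one. Over the 8703 members 0.666% had a higher neighbour. The lower ones formed 21 runs of consecutive numbers, the longest of 4, and the higher ones 3 pairs. In 1 of the consecutive lower pairs the values were identical in all 4 columns. How far reads shared between similar neighbouring genes add to this was not tested, and Zm00001d035683, Zm00001d044769, Zm00001d029546 and Zm00001d045022 are the only identifiers given here.

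MicroRNA genes are transcribed into hairpin precursors from which a mature microRNA of the family is cut, and this then guides the cleavage of target messengers. Reads over these loci in a poly(A) library come from precursors, not from the mature form. Each locus has an ENSRNA entry with the same values. With these and a nuclear pair of identical values counted once, 85 entries were higher and 534 lower. Of the 25 loci 16 reached 5 FPKM in either group, 10 of them in both. Over these 16, 8 were above the control and 8 below, and the median log2 difference was 0.06, beside 0.05 over all members. By the limit 2 of the 16 were higher and 1 lower, while 0.561% of all members were higher and 3.46% lower. Of the 10 loci at 5 FPKM or more in both groups 0 passed the limit. The loci thus lay on both sides of the control, and whether they differ as a set was not tested. When both columns were scaled to equal sums 10 of 15 were above the control.

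Loci linked to nutrients gave the 3 differences past the limit, which is set on log2(FPKM + 1). In plain FPKM, loci of other families also differed by more than 2-fold. These were MIR167g, MIR166d and MIR156k, with ratios of 2.21, 2.03 and 0.497. MIR169c, whose family targets genes of NF-YA transcription factors, was at 8.66 FPKM with nitrate and 2.65 FPKM in the control. It was at 5.58 FPKM with nitrate plus PCIB and 3.49 FPKM with TIS108. MIR169e, of the same family, was at 2.14 FPKM with nitrate and 2.53 FPKM in the control, so the loci of this family lay on either side of the control, although MIR169e was level after quantile normalization. MIR408b, whose family targets genes of copper proteins, was at 5.56 FPKM with nitrate and 2.20 FPKM in the control. It was at 1.45 FPKM with nitrate plus PCIB and 5.13 FPKM with TIS108, and was thus not high in both nitrate groups. MIR398b, of another family that targets copper protein genes, was at 1.75 FPKM with nitrate and 5.09 FPKM in the control. It was at 1.97 FPKM with nitrate plus PCIB and 3.74 FPKM with TIS108. None of the 3 passed the limit when the pseudocount was 5, where MIR169c differed by 0.84, MIR408b by 0.55 and MIR398b by -0.58 on the log2 scale. Each of the 3 was under 5 FPKM in its lower group, and MIR398b was no longer at 5 FPKM in either group when both columns were scaled to equal sums.

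The 5 loci of families that act on auxin response were above the control without reaching the limit. Among all 25 microRNA loci 12 were above it, and among all members 57.4%. Of the 5, MIR160b and MIR167d were under 5 FPKM in both groups and are thus not members. MIR167g and MIR393b reached that level with nitrate alone, so they had to be higher there. Only MIR167b reached it in both groups. The MIR167 family targets genes of auxin response factors. Its MIR167g locus was at 5.73 FPKM with nitrate and 2.60 FPKM in the control, a log2 difference of 0.90 that was 1.11 with a pseudocount of 0.1. MIR167b was at 7.50 FPKM with nitrate and 5.47 FPKM in the control, and MIR167d at 2.42 and 1.82 FPKM. MIR160b, whose family targets other auxin response factor genes, was at 3.09 FPKM with nitrate and 2.14 FPKM in the control. MIR393b, whose family targets auxin receptor genes of the TIR1 group, was at 6.31 FPKM with nitrate and 4.48 FPKM in the control. Ratios over these 5 loci ran between 1.33 and 2.21, and MIR167g was the only one above 2-fold in plain FPKM. With nitrate plus PCIB, MIR167g, MIR393b and MIR160b were below the control, at 1.755, 3.75 and 1.59 FPKM. In that group MIR167b and MIR167d were above it, at 8.74 and 2.725 FPKM. With TIS108 the 5 were at 3.36, 5.26, 3.23, 5.72 and 2.86 FPKM in the same order, all above the control.

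Families of root patterning were split. MIR166d, of a family directed against messengers of class III HD-ZIP factors, was at 11.3 FPKM with nitrate and 5.58 FPKM in the control, and MIR166a at 3.05 and 2.05 FPKM. MIR171f, whose family targets GRAS transcription factor genes, was at 40.8 FPKM with nitrate and 52.4 FPKM in the control. It stood at 15.8 FPKM with nitrate plus PCIB and 49.6 FPKM with TIS108. MIR164b, whose family targets NAC transcription factor genes, was the most abundant locus at 106 FPKM with nitrate and 111 FPKM in the control, a difference that changes sign with equal column sums. MIR164d was at 3.16 FPKM with nitrate and 4.18 FPKM in the control.

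Of the 10 loci of families of growth phase and organ growth, 8 lay below the control, while 42.6% of all members did. MIR159d, MIR396a and MIR319b, all below, were under 5 FPKM in both groups and are thus not among these members. All 4 MIR156 loci, whose family targets SPL transcription factor genes, were at or below it. MIR156k was at 6.38 FPKM with nitrate and 12.8 FPKM in the control, MIR156g at 14.7 and 16.4 FPKM and MIR156f at 6.77 and 7.83 FPKM. MIR156d, at 7.03 FPKM with nitrate and 7.06 FPKM in the control, was level and changes sign with equal column sums and after quantile normalization. MIR159a was at 14.9 FPKM with nitrate and 15.9 FPKM in the control, MIR159d at 0.706 and 1.19 FPKM and MIR159f at 5.95 and 4.80 FPKM. The other locus above the control was MIR396d, whose family targets genes of growth-regulating factors, at 13.9 FPKM with nitrate and 12.6 FPKM in the control. MIR396a and MIR319b had ratios of 0.928 and 0.797, and MIR396a was above the control after quantile normalization. None of these loci passed the limit.

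**Figure D4:**
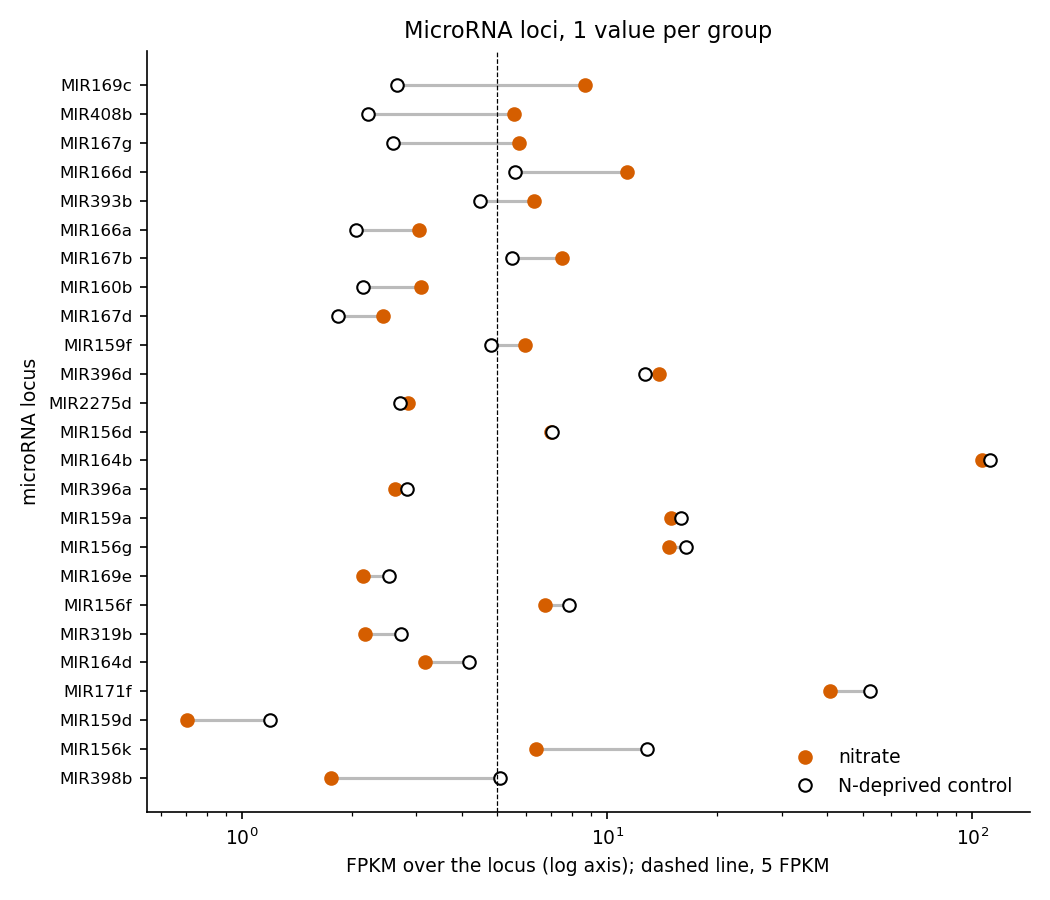
FPKM over each of the 25 microRNA loci (log axis), with filled orange points for nitrate and open points for the N-deprived control, ordered by the difference in log2(FPKM + 1); at MIR156d the points coincide. The dashed line marks 5 FPKM, and MIR169c at the top (8.66 against 2.65 FPKM) and MIR398b at the bottom (1.75 against 5.09 FPKM) cross it in opposite directions.

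The mitochondrial genome of maize encodes parts of the respiratory chain, of ATP synthase and of the mitochondrial ribosome, besides many open reading frames of unknown function. Of the 57 mitochondrial entries 16 reached 5 FPKM in either group. Over these 16, 7 were above the control and 9 below, and 0 passed the limit. Of all members 0.561% were higher and 3.46% lower by the limit, so 0 of 16 says little. The median log2 difference of the 16 was -0.06, which was 0.02 when both columns were scaled to equal sums. Only small differences were thus seen, in both directions.

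Genes of the terminal oxidase and 4 of 6 ATP synthase entries, counting both atp1 copies, were slightly above the control. Of all 57 mitochondrial entries 32 were above it, and of all members 57.4%. The genes cox1, cox2 and cox3, which encode subunits of cytochrome c oxidase, were at 3.60, 5.07 and 5.26 FPKM with nitrate, against 2.85, 4.17 and 4.32 FPKM in the control, and their ratios lay within 1.21 to 1.26. The cytochrome b gene cob had a ratio of 1.16. Of the ATP synthase genes atp8 was at 5.11 FPKM with nitrate and 3.78 FPKM in the control, and atp6 at 3.38 and 2.79 FPKM. The copies atp1-a1 and atp1-a2 share their values, 1.96 FPKM with nitrate and 1.55 FPKM in the control. The most abundant gene of the complex, atp9, was at 42.9 FPKM with nitrate and 45.8 FPKM in the control, and atp4 at 4.82 and 4.95 FPKM, which changes sign with equal column sums. The abundant member of the complex therefore did not share the direction of the 4 entries with a ratio above 1. Of the genes named here, cox1, cob, atp4, atp6 and both atp1 copies were under 5 FPKM in both groups and are thus not members. The members cox2, cox3 and atp8 reached that level with nitrate alone, so they had to be higher there. Of the 10 mitochondrial entries at 5 FPKM or more in both groups, 3 were above the control and 7 below.

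NADH dehydrogenase genes were split. The gene nad3 was at 16.6 FPKM with nitrate and 19.6 FPKM in the control, nad6 at 0.949 and 1.44 FPKM, and nad9 at 2.87 and 2.91 FPKM, the last of which changes sign with equal column sums. Above the control were nad4, at 2.06 FPKM with nitrate and 1.81 FPKM in the control, and nad7, at 1.15 and 1.05 FPKM.

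Among the other mitochondrial entries, the widest differences downward were those of trnL-b, rps12 and orf140-b. The trnL-b entry, listed by RefSeq as a tRNA pseudogene, was at 10.0 FPKM with nitrate and 18.0 FPKM in the control. The ribosomal protein gene rps12, the most abundant mitochondrial entry, was at 60.6 FPKM with nitrate and 85.0 FPKM in the control. The open reading frame orf140-b was at 1.40 FPKM with nitrate and 2.40 FPKM in the control. The widest upward was that of the mitochondrial rpl16, another ribosomal protein gene, at 1.40 FPKM with nitrate and 0.636 FPKM in the control. The open reading frames orf121-a-ct and orf186 followed, with ratios of 1.51 and 1.86 at levels under 5 FPKM.

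Plastid genes were low. The cytochrome f gene petA was the only one to reach 5 FPKM, at 5.17 FPKM with nitrate and 3.73 FPKM in the control, with 5.03 FPKM with nitrate plus PCIB and 5.58 FPKM with TIS108. It thus stood at like levels in the 3 groups other than the control. The plastid rpl16 was at 1.07 FPKM with nitrate and 0.513 FPKM in the control, and ycf4, whose product assists photosystem I assembly, at 2.96 and 2.06 FPKM. On the log2(FPKM + 1) scale, which compresses differences at such low levels, clpP, matK and psaB differed least, and their plain ratios were 1.01, 1.03 and 0.856. Over the whole list 14 of 15 plastid entries were above the control, counting both copies of rpl23, which share their nitrate and control values. The exception was psaB, which was above the control too after quantile normalization. Of all members 57.4% were above the control, but petA is the only plastid entry among them and passed through nitrate alone. The 10941 entries of the table under 5 FPKM in both groups had a median log2 difference of -0.06.

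**Figure D5:**
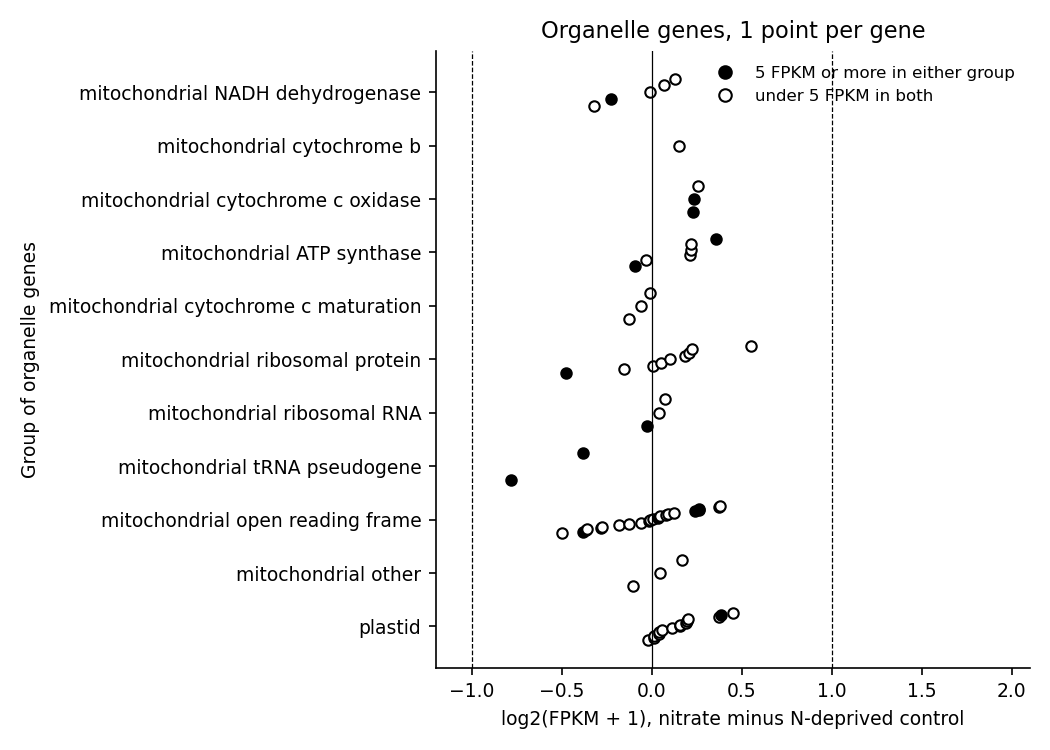
Difference in log2(FPKM + 1), nitrate minus N-deprived control, of each mitochondrial and plastid gene, grouped by function. Filled points reached 5 FPKM in either group and open points did not, and 0 points lie beyond the 2-fold limit (dashed lines). The 3 cytochrome c oxidase genes lie together between 0.23 and 0.25, and trnL-b at -0.78 is the lowest point.

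Most RNA genes with an ENSRNA identifier were slightly above the control. After the 16 that repeat a microRNA locus were left out, 207 remained, of which 143 (69.1%) were above the control and 64 below, while 57.4% of all members were above it. Their median log2 difference was 0.20, beside 0.05 over all members, and the middle 50% lay between -0.06 and 0.42. Among the 179 at 5 FPKM or more in both groups, 123 were above the control and the median was 0.16. Over the 207 the median level was 13.1 FPKM with nitrate, 9.76 FPKM with nitrate plus PCIB, 9.87 FPKM with TIS108 and 11.6 FPKM in the control, so the nitrate column was the highest. By the 2-fold limit, which 0.561% of all members passed upward and 3.46% downward, 2 were higher and 0 lower. These were ENSRNA049463047, at 5.80 FPKM with nitrate and 1.85 FPKM in the control, and ENSRNA049479219, at 8.71 and 3.76 FPKM. ENSRNA049469775, the most abundant of the set, was at 1328 FPKM with nitrate and 1106 FPKM in the control. These RNAs are not named in the table, and the part of poly(A) selection in their levels was not tested.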

How the data were processed

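Poly(A) RNA of primary roots was sequenced as paired-end TruSeq libraries, per the labels' protocols. CASAVA 1.8, Trimmomatic 0.39 and TopHat2 2.0.13 and the build B73 RefGen_v4 are listed, per the submitters' processing notes. The authors deposited FPKM values with 1 column per group. The program that made them, the annotation, the use of strand and how 3 replicates became 1 column were not stated in the sources used here. There were 0 columns of no group. FPKM depends on annotated length and on the column's total, so short features are less stable. Depth is unknown, so no interval was computed.

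Differences were taken on log2(FPKM + 1), nitrate minus control, with Python 3.11.15, numpy 2.4.6 and pandas 2.3.3; ratios are plain FPKM ratios. Entries needed 5 FPKM in the higher group and a 2-fold difference to be called. With 1 value per group, 0 tests across replicates were made. Simulated data, with large changes set in advance and an assumed noise, were used only to check the arithmetic of the calling. They give no error rate for these data. Names of 97 entries came from RefSeq (assembly Zm-B73-REFERENCE-NAM-5.0). Its build differs, so only names and gene order were taken. Named nuclear identifiers are those with the widest log2 difference and the widest FPKM difference per direction. Among microRNA, mitochondrial and plastid features the called ones, the 3 widest per direction and all cox, nad, atp and cob genes are named. Other loci, the ENSRNA examples and the level classes were chosen after values were seen. The comparison, members and lists were chosen with earlier results of these data known. Alternatives were other pseudocounts, column scalings, minimum levels and counting identical entries once.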

Additional observations from a re-analysis of the deposited data

How the results depend on the processing

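Under every alternative tried, more entries were called lower than higher. On the lower side were 79.1% to 88.1% of the called entries (86.0% as reported). With a pseudocount of 5 the counts were 50 higher and 189 lower, and among entries at 5 FPKM or more in both groups, an alternative chosen after seeing the data, they were 40 and 248 over fewer entries by construction. The other alternatives gave 74 to 112 higher and 393 to 771 lower. The microRNA median (0.06) was 0.20 when both columns had equal sums and -0.081 at 5 FPKM in both groups. The mitochondrial median (-0.06) was 0.042 with no minimum level, -0.23 with a mean of at least 5 FPKM and -0.16 at 5 FPKM in both groups. That of the plastid member petA (0.38) was 0.22 with a pseudocount of 5, and over all plastid genes with no minimum it was 0.16. The median of entries at 100 FPKM or more (-0.10) was 0.039 after quantile normalization. Why these values moved was not tested beyond the change of members or scale that each alternative makes. The 7 single entries past the limit lost that call in 13 of 56 values, and 10 of these 13 belong to the 3 microRNA loci. Dropping the minimum level and counting identical entries once could not change such a call. Some losses came from the minimum level alone, such as that of Zm00001d045022 at an unchanged 4.66. Of the single entries within the limit MIR167g passed it under 2 alternatives. Leaving out replicates could not be done, since each group has 1 column. No paired analysis was possible because the columns carry no replicate numbers. Depth is unknown, so its limit on low entries cannot be given.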

Other observations

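In the order of the RefSeq mitochondrial genome, a run of entries was below the control. Of the 57 mitochondrial entries placed in that order 25 were below it, 19 of them elsewhere, and the longest run held 6: orf179, rps12, nad3, trnL-b, orf140-b and mat-r, the last of which encodes a maturase-related protein. These are 6 of 7 consecutive RefSeq genes. Their ratios of nitrate to control lay between 0.558 (trnL-b) and 0.849 (mat-r). The orf179 entry was at 3.03 FPKM with nitrate and 4.17 FPKM in the control, and mat-r at 0.741 and 0.873 FPKM. With TIS108 the 6 were below their nitrate values, as were 52 of all 57 entries. The nearest entries of the table on either side, orf1159 and rps1, had ratios of 1.69 and 1.01. Neither is next to the run in RefSeq order. The orf1159 entry was close to 0, at 0.243 FPKM with nitrate and 0.144 FPKM in the control, and rps1 was level at 2.23 and 2.21 FPKM. The run was noticed after the values were seen, neighbouring genes may share transcripts or reads, and whether they do was not tested. After quantile normalization mat-r was above the control, at a log2 difference of 0.05, which shortens the run.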
